A study of Homo sapiens with 16 samples.

Results

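Gene expression in SUM225 cells was compared between the first hours of HER2 inhibition, represented by the arrays at 3, 6 and 9 h, and the following hours, represented by the arrays at 12, 15, 18 and 21 h. The arrays were chosen by the time in their labels, and they were 7 of the 16 in the time course. SUM225 is an established breast cancer cell line that carries an amplified, overexpressed HER2 gene. All cultures received CP724,714, a small molecule inhibitor of the HER2 tyrosine kinase, at 1 µM in Ham's F-12 medium with 5% fetal bovine serum, insulin at 5 µg/ml and hydrocortisone at 1 µg/ml. RNA came from parallel cultures, 1 for each time point from 0 to 45 h. The 0 h array was left out of the test and was used to tell a return to the starting level from a new change. No culture without inhibitor was compared at any later time, so hours of inhibitor and hours in culture cannot be told apart. The time points of a window are also not replicate cultures, so each error below is the spread between time points within the windows.

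HER2 is a receptor tyrosine kinase of the ERBB family. With its partner receptors it activates the RAS-ERK cascade and the PI3K-AKT pathway. ERK activity induces its own inhibitors, among them the dual-specificity phosphatases and the Sprouty proteins. Their transcripts are short-lived and are widely read as a gauge of ERK output, and a partial recovery of such transcripts after the first hours of kinase inhibition is known as rebound. Both pathways also drive entry into S phase, sterol and fatty acid synthesis and glycolysis.

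Levels are given as normalized log2 signal, and differences are the mean at 12-21 h minus the mean at 3-9 h on the log2 scale. Median raw signals lay between 242 and 296 on the 3-9 h arrays and between 294 and 361 on the 12-21 h arrays, before normalization. The labels name no handling batch. If the arrays had been handled in sets of 4 in order of time, a border between sets would have fallen between 9 and 12 h, and set and window cannot be told apart. The root mean square step between neighbouring arrays was 0.42 from 9 to 12 h, against 0.35 to 0.40 for the steps before it and 0.26 to 0.30 for the steps between 12 and 21 h. Of the luminal and HER2 amplicon markers, all 9 were detected on all 16 arrays. Of 13 fibroblast, endothelial and leukocyte markers, VIM, COL3A1, DCN, LUM and PTPRC were detected on no array and CDH5 and CD3D on 1 of 16. PECAM1, CD68 and CD14 were detected on all 16 arrays, VWF on 13, and COL1A1 and COL1A2 on 5 each. COL1A1 was detected on 0 of 3 early and 4 of 4 later arrays, VWF on 1 and 4, and COL1A2 on 2 and 0. None of these 6 passed the threshold in either direction. The windows did not overlap for 3 of them, COL1A1, COL1A2 and CD14, against 31.3% of all probes tested.

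Between the windows, 3622 of 16110 probes passed an adjusted p of 0.05 in limma, which is 22.5% of those tested. Of these, 1793 were higher at 12-21 h (11.1%) and 1829 were lower (11.4%). With 1 probe per gene, 12.2% of 13023 genes rose and 11.2% fell, and the list counts below are set against these shares. Large changes were mostly falls. Of the 505 changed probes with a difference of at least 1 log2 unit (3.13%), 141 rose and 364 fell, and at 2 log2 units or more there were 3 rises and 41 falls. The windows did not overlap for 5043 probes (31.3%). The median SE of a difference was 0.15. Under median scaling in place of quantile normalization the number of changed probes was 3612, but only 24.3% of them were higher instead of 49.5%, and the median of all probes shifted from 0.04 to -0.11. This scaling divided the log2 values of each array by a factor, so it moved bright probes more than dim ones. The median of the luminal and HER2 amplicon markers went from 0.02 to -0.61. Results under median scaling below carry this dependence on level. The number of changed probes fell to 2102 without the 6 h array and to 2378 without the 18 h array, and only 261 passed when hours entered the fit as a covariate.

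For each probe, the largest of the 7 steps between 0 and 21 h in the direction of its change was located. Of the 364 probes that fell by at least 1 log2 unit, 296 made their largest step from 9 to 12 h, or 81.3%. Of the 141 that rose as much, 90 did so (63.8%), against 32.6% of all probes tested. The step from 9 to 12 h is itself part of the contrast, so these shares describe the changed probes and are no test.

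**Figure D1:**
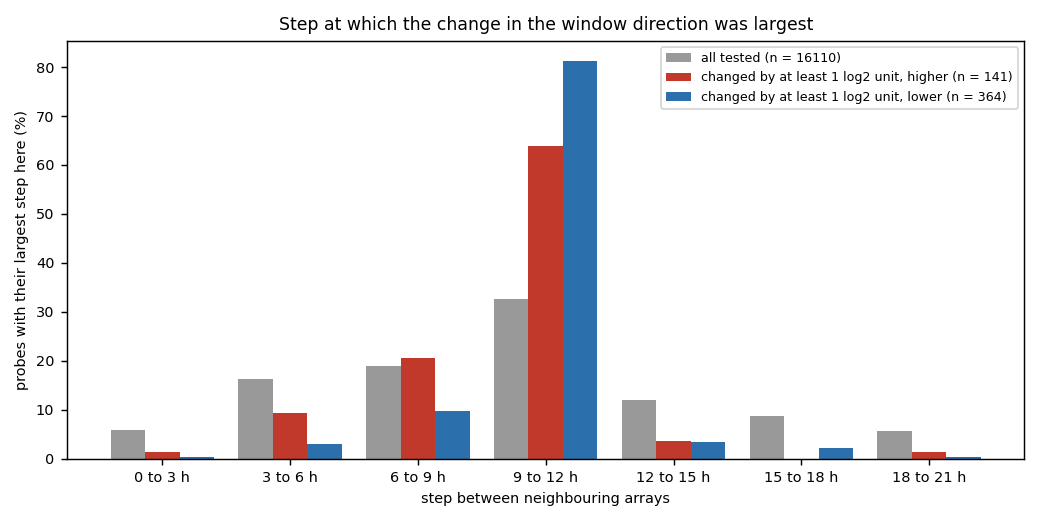
Percentage of probes (y axis) whose largest step in the direction of the window difference fell at each interval between neighbouring arrays from 0 to 21 h (x axis), for all 16110 probes tested and for those that rose (141) or fell (364) by at least 1 log2 unit. The 9 to 12 h step held 63.8% of the rises and 81.3% of the falls, against 32.6% of all probes.

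The 0 h array separated a rebound from a new change. Its place was expressed as the distance from the 3-9 h mean, divided by the distance between the window means. A place within 0.25 of 1 was called a return, and a place above that a partial return, since the 12-21 h level then lay between the treated low and the start. A place between -0.25 and 0.25 was called a new change, because 0 h and 3-9 h lay together. A place below -0.25 means that the level had already left the start in the same direction, and the remaining places lay between new change and return. These classes share the 3-9 h arrays with the contrast, rest on a single 0 h array and are given as a description. Of the 3622 changed probes, 261 were returns (7.21%), 118 partial returns (3.26%), 1379 new changes (38.1%) and 1078 had gone on from the starting side (29.8%). Among the changes of at least 1 log2 unit, new changes made up 65 of the 141 rises and 239 of the 364 falls. Returns and partial returns together were 9 and 8 of these rises, and 5 and 0 of these falls. Returns and partial returns were thus a small share of these large changes, and new changes were their most frequent class in either direction. In a further 22 of these rises and 40 of these falls the place lay between 0.25 and 0.75. There the 2 window means lay on opposite sides of the start, so the level had come back and passed it. Among all 1793 changed rises, 616 had gone on from the starting side and 559 were new changes. Of all probes tested, 8.56% were returns, 21.5% partial returns and 17.4% new changes.

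**Figure D2:**
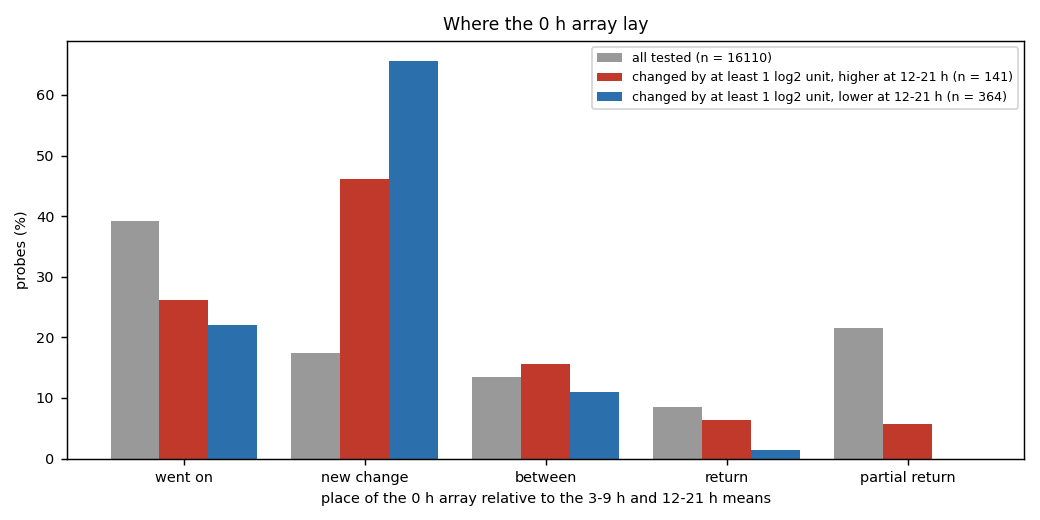
Percentage of probes (y axis) by the place of the 0 h array relative to the window means (x axis), for all 16110 probes tested and for changes of at least 1 log2 unit upwards (141) or downwards (364). New changes were 46.1% of these rises and 65.7% of these falls.

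Inhibitors of ERK signalling were among the genes that came back toward the start. Of the 10 tested genes that encode ERK feedback inhibitors, 6 rose and none fell, with a median difference of 0.89, against 12.2% of all 13023 genes that rose. DUSP6, a phosphatase that inactivates ERK, stood at 11.25 at 0 h. It was 7.37, 8.60 and 8.30 at 3, 6 and 9 h, and 10.02, 9.37, 9.73 and 9.55 at 12, 15, 18 and 21 h. The collapse at 3 h was thus followed by a rise of 1.58 (SE 0.25, adjusted p = 0.000937), 2.98-fold, that left every later array below the start. SPRY4, a Sprouty inhibitor of receptor tyrosine kinase signalling, had the same course, with 10.65 at 0 h, 7.05, 7.99 and 7.61 in the first window and 9.43, 8.67, 8.50 and 8.77 in the second (difference 1.29, SE 0.24, adjusted p = 0.00272). SPRY2 stood at 11.39, then at 8.67, 9.72 and 9.79, then at 10.86, 10.25, 10.46 and 10.60 (difference 1.15, SE 0.24, adjusted p = 0.00477). These 3 genes were partial returns.

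DUSP5 and SPRY1 came back to the start. DUSP5, a nuclear phosphatase specific for ERK, was 11.30 at 0 h, 9.16, 9.79 and 10.22 at 3, 6 and 9 h, and 11.24, 10.92, 10.88 and 11.06 at 12 to 21 h (difference 1.30, SE 0.20, adjusted p = 0.000711). SPRY1 was 10.77 at 0 h, 8.97, 9.61 and 10.08 in the first window, and 11.09, 10.58, 10.73 and 10.77 in the second (difference 1.24, SE 0.21, adjusted p = 0.0015). In both genes the rise had begun within the first window, and the windows did not overlap. ERRFI1, the sixth member that rose, lies outside the rule by which genes were named and was named after its values were seen. With any 1 of the 7 arrays left out, 6 or 7 members of the list rose, and 5 rose under median scaling, but none passed with hours as a covariate although the list's median was then 0.90.

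**Figure D3:**
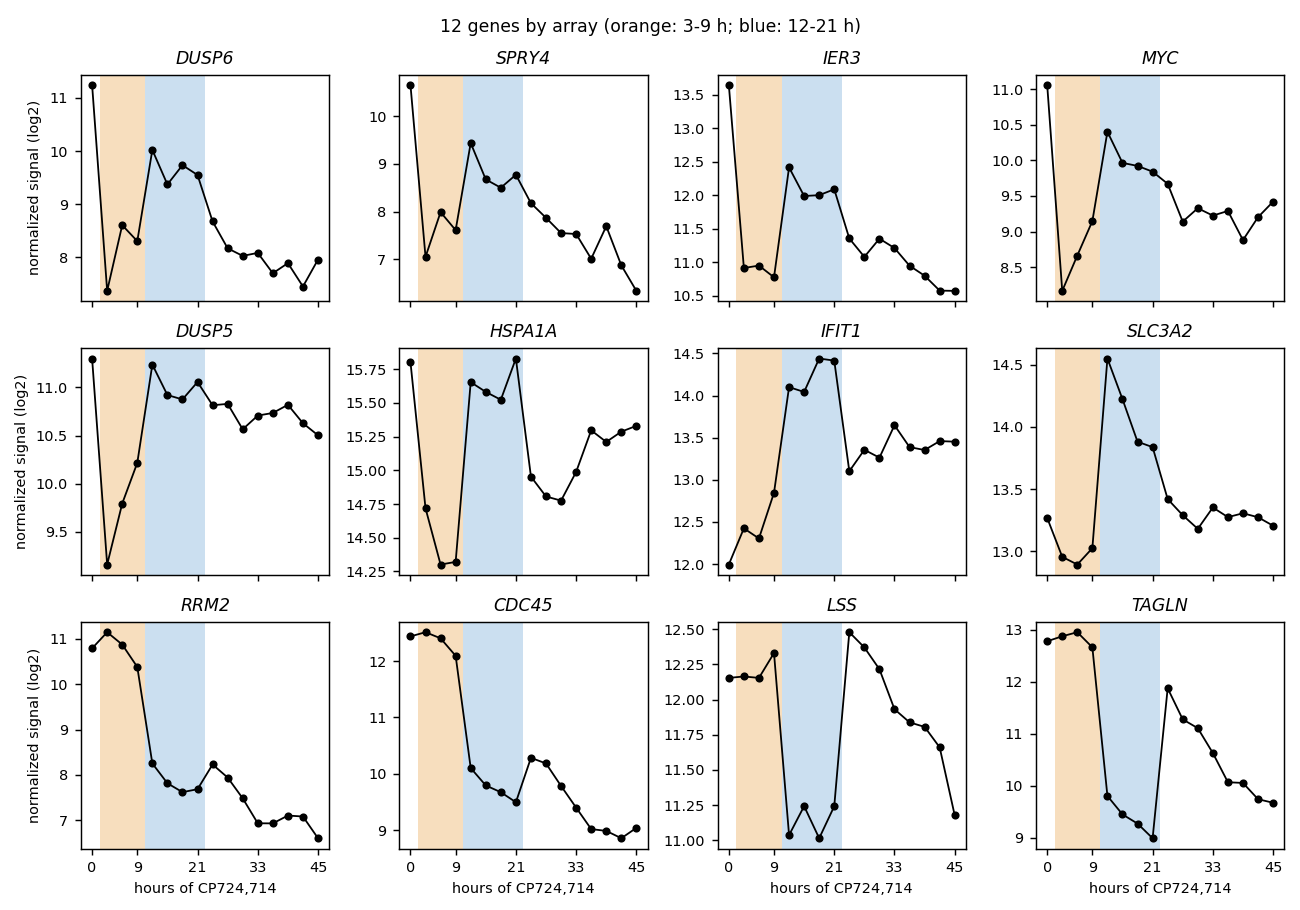
Normalized log2 signal (y axis) of 12 genes on each of the 16 arrays by hours of CP724,714 (x axis), 1 array per point, with the 3-9 h window in orange and the 12-21 h window in blue. DUSP6 fell from 11.25 to 7.37 by 3 h and stood at 10.02 at 12 h, whereas RRM2 and TAGLN held their starting level to 9 h and then fell.

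The ERK-responsive transcription factors and targets were mixed. Of 12 tested, 4 rose and 2 fell, against 12.2% and 11.2% of all genes, with a median of 0.47. MYC, a transcription factor of cell growth, was 11.06 at 0 h, 8.17, 8.66 and 9.15 at 3, 6 and 9 h, and 10.40, 9.97, 9.92 and 9.84 at 12 to 21 h (difference 1.37, SE 0.21, adjusted p = 0.000644). IER3, an immediate early gene, was 13.65 at 0 h, 10.91, 10.95 and 10.77 in the first window and 12.42, 11.99, 12.00 and 12.09 in the second (difference 1.24, SE 0.12, adjusted p = 2.26e-05). Neither gene reached its starting level on any array at 12-21 h. PHLDA1 was also a partial return, with a difference of 1.27 (SE 0.24, adjusted p = 0.0026). ETV4, a PEA3 family transcription factor, moved the other way. It was 9.06 at 0 h, 9.23, 8.31 and 7.62 in the first window and 7.10, 7.50, 7.08 and 6.63 in the second (difference -1.31, SE 0.31, adjusted p = 0.0104). A second ETV4 probe gave -1.09 and did not pass (adjusted p = 0.0609 in limma). Only 1 member of the list fell without the 6, 15, 18 or 21 h array, and with hours as a covariate 2 rose and none fell. Genes of this class thus moved in both directions in the fit without this covariate.

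Immediate early genes rose in a narrower range. Of 17 tested members of the AP-1 and immediate early list, 11 rose and none fell, against 12.2% of all genes that rose. The median was 0.33. FOS, a subunit of AP-1, was 9.92 at 0 h, 8.18, 9.34 and 9.34 at 3 to 9 h and 10.25, 9.78, 10.03 and 9.93 at 12 to 21 h (difference 1.04, SE 0.24, adjusted p = 0.00892). Its partner JUN was 12.24, then 11.25, 12.10 and 11.94, then 12.53, 12.50, 12.32 and 12.33 (difference 0.65, SE 0.16, adjusted p = 0.0133). In both, the 3 h array was the lowest of the 8, and the 12-21 h arrays lay close to the start. ZFP36L1, an RNA-binding protein that promotes decay of mRNA, was also lowest at 3 h, by less, and was a new change of 0.72 (SE 0.12, adjusted p = 0.00151). Under median scaling only FOS and IER2 of this list passed, and 4 rose without the 18 h array, 5 without the 21 h array, 6 without the 3 h array, 7 without the 6 h or 12 h array and up to 10 without another. Without the 3 h array 1 member fell. With hours as a covariate none passed, and the list's median was 0.15.

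HSPA1A and HSPA1B, the stress-inducible HSP70 genes, also returned. HSPA1A was 15.80 at 0 h, 14.72, 14.30 and 14.32 at 3 to 9 h and 15.65, 15.58, 15.52 and 15.83 at 12 to 21 h (difference 1.20, SE 0.10, adjusted p = 1.11e-05). HSPA1B differed by 1.06 (SE 0.07, adjusted p = 2.65e-06), but the genes are nearly identical in sequence and their probes may measure both. The raw signal lay between 21.0% and 90.5% of the brightest probe for HSPA1A and between 22.9% and 81.7% for HSPA1B. HSPA1A thus came near the top of the scale on its brightest array, where differences between HSPA1A and HSPA1B levels are less certain. DNAJB1, their co-chaperone, was 12.40 at 0 h, 11.15, 11.63 and 11.81, and then 12.28, 12.22, 12.27 and 12.26 (difference 0.73, SE 0.13, adjusted p = 0.00206). Of the 17 heat shock chaperones tested, 6 rose and 1 fell, against 12.2% and 11.2% of all genes. The median was 0.07, which turned to -0.38 under median scaling, with none of the members rising and 4 falling. The median was 0.35 with 9 rises without the 3 h array, and -0.05 with 5 rises and 2 falls without the 9 h array. Outside the lists, CX3CL1, a membrane-bound chemokine, and FOXQ1, a forkhead transcription factor, were returns upwards, with differences of 1.13 (SE 0.18, adjusted p = 0.000913) and 1.16 (SE 0.20, adjusted p = 0.00141). LY6D, a surface protein of squamous and luminal epithelia, was the largest return downwards. It went from 8.32 at 0 h to 8.86, 9.38 and 9.79 and back to 8.18, 7.84, 8.31 and 8.16 (difference -1.22, SE 0.20, adjusted p = 0.00112).

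**Figure D4:**
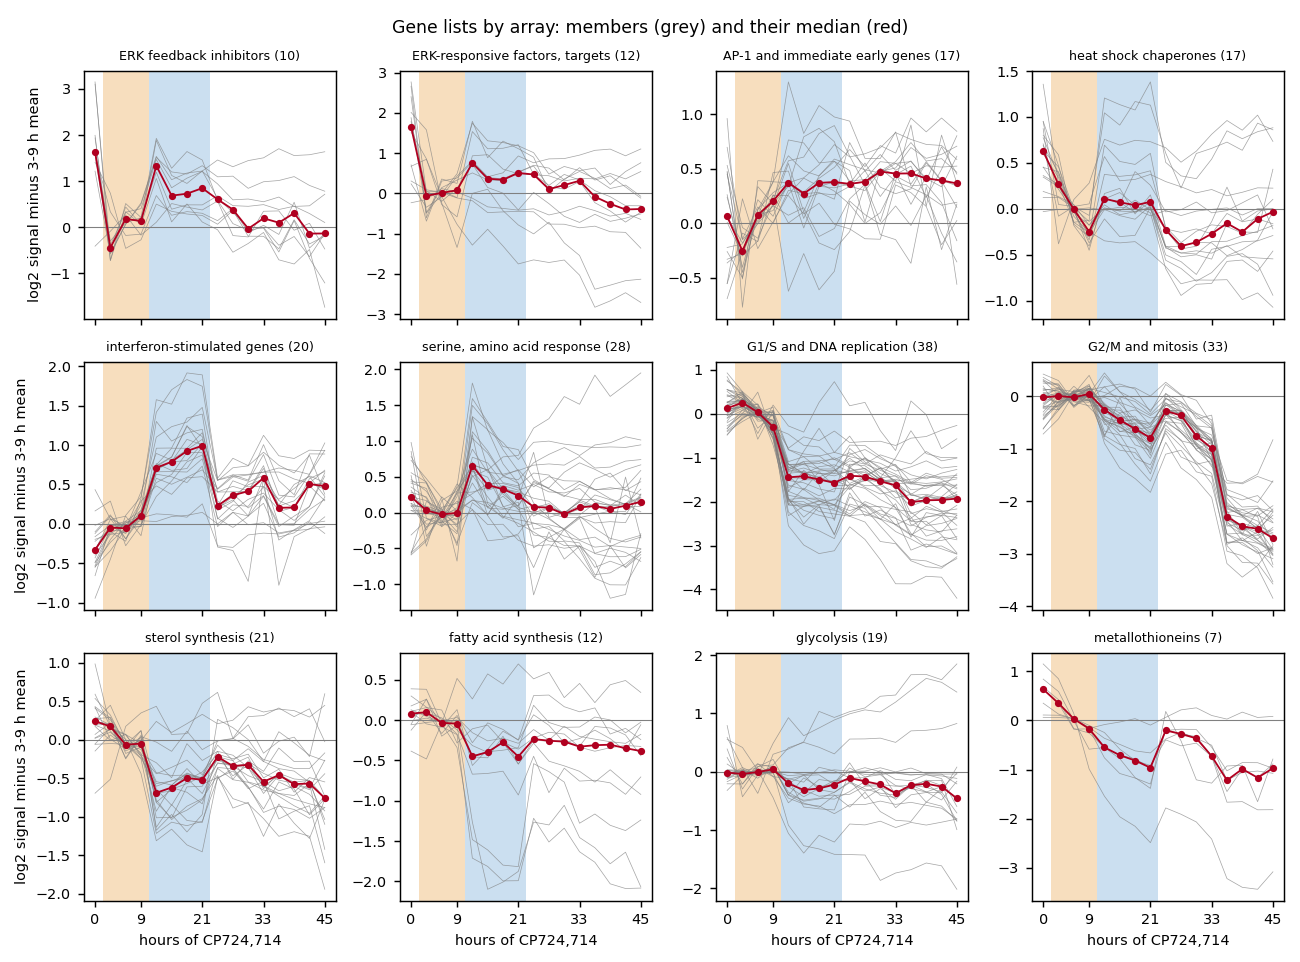
Log2 signal minus the gene's 3-9 h mean (y axis) by hours of CP724,714 (x axis) for the tested members of 12 gene lists, with 1 grey line per gene, the list median in red and the number of members in brackets (3-9 h orange, 12-21 h blue). The ERK lists fall by 3 h and rise at 12 h, whereas the DNA replication list stays near 0 to 6 h and stands at -1.45 at 12 h, and the chaperone median difference is below 0 under median scaling and without the 9 h array.

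Interferon-stimulated genes rose as a group. Many of these genes carry a short promoter element, the interferon-stimulated response element. Of 20 tested members, 18 rose and none fell, against 12.2% of all genes that rose, and the median difference was 0.86. Only IFI27 (0.09) and BST2 (0.14) did not pass. IFIT1, an RNA-binding antiviral protein, was 11.99 at 0 h, 12.42, 12.30 and 12.85 at 3 to 9 h and 14.10, 14.04, 14.44 and 14.41 at 12 to 21 h (difference 1.72, SE 0.13, adjusted p = 6.45e-06). IFI44L was 11.06 at 0 h, 11.55, 12.11 and 12.35 in the first window, and 13.42, 13.71, 13.84 and 13.75 in the second (difference 1.67, SE 0.16, adjusted p = 2.6e-05). IRF7, a transcription factor of the interferon response, was 11.82, then 11.89, 12.03 and 12.14, then 13.32, 13.07, 13.18 and 13.22 (difference 1.18, SE 0.09, adjusted p = 6.25e-06). On the first 3 arrays these genes lay at or somewhat above the start, and every 12-21 h array lay above every earlier one. Of the 18 that rose, 13 had gone on from the starting side, 4 were new changes and none was a return. With 1 array left out 17 or 18 members rose, whereas under median scaling 10 rose and IFI27 fell, and with hours as a covariate 5 rose.

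The element was looked for in the promoters of this list. Its letters, GAAA, any 2 bases and GAAA, were searched on both strands in the 250 bases before the RefSeq gene start, and matches may overlap. Promoters were found for 16 of the members, and 12 of them held a match (75.0%), against 839 of 27305 promoters of all genes (3.07%). IFI27 and BST2, which did not pass, were among the 12. The sequences of 3 members that rose are shown from RefSeq on GRCh38.p14, read along the gene's strand, with the matches in capitals.
IFIT1, chr10:89392467-89392569, plus strand: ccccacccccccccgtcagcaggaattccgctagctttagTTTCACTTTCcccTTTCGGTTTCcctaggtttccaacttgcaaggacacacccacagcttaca
IFI44L, chr1:78620335-78620424, plus strand: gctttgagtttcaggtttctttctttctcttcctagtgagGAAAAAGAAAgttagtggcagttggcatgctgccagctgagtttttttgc
IFI6, chr1:27672236-27672388, minus strand: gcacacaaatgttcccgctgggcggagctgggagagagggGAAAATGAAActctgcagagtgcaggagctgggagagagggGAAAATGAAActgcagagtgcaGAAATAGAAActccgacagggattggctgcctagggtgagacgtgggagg
IFIT1 holds 2 matches on the opposite strand, IFI44L holds 1 and IFI6 holds 3. A match is a description of these letters and does not show that a factor was bound. IFI6 rose by 0.89 (SE 0.09, adjusted p = 2.87e-05) by its brightest probe, while another probe of the gene, which ranged from 11.74 to 13.99 at 12-21 h, gave -0.22 and did not pass.

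Genes of the amino acid response rose in part. The transcription factor ATF4 drives this response and induces transporters and enzymes of amino acid supply. Of 28 tested members of the serine synthesis and amino acid response list, 12 rose and none fell, against 12.2% of all genes that rose. The list median was 0.38. SLC3A2 and SLC7A5 encode the heavy and light chains of the large neutral amino acid transporter. SLC3A2 was 13.27 at 0 h, 12.96, 12.89 and 13.02 at 3 to 9 h and 14.55, 14.22, 13.88 and 13.84 at 12 to 21 h (difference 1.16, SE 0.14, adjusted p = 0.000141). SLC7A5 was 13.59 at 0 h, 13.52, 13.17 and 13.22 in the first window, and 14.80, 14.54, 14.18 and 13.88 in the second (difference 1.05, SE 0.17, adjusted p = 0.0012). Both were highest at 12 h, above the start, and lower on each array after it. TRIB3, an ATF4 target, was a partial return of 0.74 (SE 0.12, adjusted p = 0.00133). ATF4 itself rose by 0.64 (SE 0.11, adjusted p = 0.00163), but its difference was -0.05 under median scaling. PHGDH, the enzyme of the first step of serine synthesis that the study followed, was 15.85 at 0 h, 15.84, 15.81 and 15.82 in the first window and 16.00, 15.90, 15.76 and 15.67 in the second. Its windows overlapped and the difference was 0.01 (SE 0.07, adjusted p = 0.928). The raw signal of PHGDH lay between 36.3% and 90.3% of the brightest probe, so it came near the top of the scale on its brightest array. Under median scaling only SLC3A2 and STC2 of this list rose, and 2 members fell. With hours as a covariate 10 rose.

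Genes of DNA replication gave the most uniform fall. Of 38 tested members of the G1/S and DNA replication list, 36 fell and none rose, with a median of -1.50, against 11.2% of all genes that fell. CDC45, a subunit of the replicative helicase, was 12.44 at 0 h, 12.51, 12.40 and 12.09 at 3 to 9 h and 10.10, 9.79, 9.67 and 9.50 at 12 to 21 h (difference -2.57, SE 0.15, adjusted p = 1.77e-06). RRM2, the small subunit of ribonucleotide reductase, was 10.79 at 0 h, 11.15, 10.88 and 10.38 in the first window, and 8.25, 7.82, 7.62 and 7.68 in the second (difference -2.96, SE 0.19, adjusted p = 2.65e-06). PCNA, the sliding clamp, was 14.50 at 0 h, 14.52, 14.41 and 14.20, and then 13.03, 13.05, 13.02 and 13.01 (difference -1.35, SE 0.08, adjusted p = 1.84e-06). Of the other PCNA probes, 1 fell by 1.04 (adjusted p = 0.000179 in limma) and 1 gave -0.42 and did not pass (adjusted p = 0.0724). By the brightest probes of all 3 genes the arrays to 6 h lay close to or above the start and the 9 h array somewhat below it. The arrays from 12 h formed a separate lower level. TYMS and CDT1 fell by 2.21 (SE 0.12, adjusted p = 1.45e-06) and 1.96 (SE 0.11, adjusted p = 1.77e-06). Of the 36 that fell, 24 were new changes and 9 had gone on from the starting side. The list median, relative to the 3-9 h mean, moved by -0.33 from 6 to 9 h and by -1.15 from 9 to 12 h. Between 36 and 37 members fell with any 1 array left out, 37 under median scaling and 23 with hours as a covariate.

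E2F factors, which RB1 and its relatives hold back until late G1, act on many of these promoters. The letters TTTNGCGC were found on either strand in 8 of 32 promoters of the list (25.0%) and in 420 of 27305 of all genes (1.54%). The windows of 3 members that fell are shown, CDT1 with the value above, MCM7, a helicase subunit that fell by 1.27, and E2F2, an E2F factor that fell by 1.33. The matches are in capitals, and in E2F2 a pair of matches overlaps.
CDT1, chr16:88803539-88803623, plus strand: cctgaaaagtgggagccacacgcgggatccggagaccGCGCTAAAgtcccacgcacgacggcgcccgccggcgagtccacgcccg
MCM7, chr7:100101398-100101446, minus strand: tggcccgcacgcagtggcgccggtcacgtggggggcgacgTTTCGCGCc
E2F2, chr1:23531234-23531315, minus strand: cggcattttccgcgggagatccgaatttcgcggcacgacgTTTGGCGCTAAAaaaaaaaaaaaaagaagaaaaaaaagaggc
By the same search, a sterol regulatory element (TCACNCCAC) was in 1 of 15 promoters of the sterol list and in 0.875% of all promoters, and a heat shock element (GAA, TTC and GAA, each 2 bases apart) was in 1 of 16 chaperone promoters and in 0.439% of all.

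Of the genes that control entry into S phase, 6 of 13 G1 cyclins and CDK inhibitors fell and 1 rose, against 11.2% and 12.2% of all genes. Only 3 fell without the 6, 9, 18 or 21 h array, and with hours as a covariate none fell and 1 rose. RBL1, the pocket protein p107, was 8.31 at 0 h, 8.65, 7.90 and 7.86 at 3 to 9 h and 6.86, 6.73, 6.38 and 6.75 at 12 to 21 h (difference -1.46, SE 0.21, adjusted p = 0.000529). CDK4, the kinase partner of D-type cyclins, fell by 0.48 (SE 0.10, adjusted p = 0.00424), and CDKN1A, the inhibitor p21, fell by 0.44 (SE 0.12, adjusted p = 0.0226). Genes of G2 and mitosis fell less. Of 33 tested, 23 fell and none rose, with a median of -0.52. CCNA2, cyclin A2, was 12.00 at 0 h, 12.00, 12.05 and 11.94 in the first window and 11.18, 10.96, 10.92 and 10.60 in the second (difference -1.08, SE 0.12, adjusted p = 0.000101). AURKB, a mitotic kinase, was 11.94, then 11.94, 12.22 and 12.23, then 11.23, 10.76, 10.56 and 10.30 (difference -1.42, SE 0.18, adjusted p = 0.000181). Both went on falling from array to array within the second window. The number of members of the mitosis list that fell was 15 without the 6 h array and up to 25 with another array left out, and with hours as a covariate none fell and 1 rose.

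In the lipid synthesis lists most members fell and none passed the test upwards. Of 21 tested genes of sterol synthesis, which SREBP-2 activates, 17 fell, against 11.2% of all genes, with a median of -0.61. LSS, lanosterol synthase, was 12.15 at 0 h, 12.16, 12.15 and 12.33 at 3 to 9 h and 11.04, 11.24, 11.02 and 11.24 at 12 to 21 h (difference -1.08, SE 0.10, adjusted p = 2.24e-05). HMGCS1, which makes HMG-CoA, was 14.78 at 0 h, 14.56 and 14.18 at 3 and 6 h, lower still at 9 h, and then 13.02, 13.17, 13.13 and 13.18 (difference -1.12, SE 0.11, adjusted p = 3.84e-05). INSIG1, which retains SREBP in the endoplasmic reticulum, was 9.87, then 10.08, 9.93 and 10.04, then 8.88, 9.17, 8.97 and 8.94 (difference -1.03, SE 0.12, adjusted p = 9.96e-05). Of the 17 that fell, 11 had gone on from the starting side, like HMGCS1, and 6 were new changes, like LSS and INSIG1. Of 12 genes of fatty acid synthesis, 9 fell, with a median of -0.38. FADS1, a fatty acid desaturase, was 11.15 at 0 h, 11.23, 10.89 and 10.79 in the first window and 9.26, 9.16, 8.98 and 8.98 in the second (difference -1.88, SE 0.13, adjusted p = 4.39e-06). FADS2 and ELOVL6, an elongase, fell by 1.81 (SE 0.20, adjusted p = 6.88e-05) and 1.68 (SE 0.15, adjusted p = 1.89e-05), and ACLY, which supplies cytosolic acetyl-CoA, fell by 0.72 (SE 0.10, adjusted p = 0.000426). With hours as a covariate 5 sterol genes and 3 fatty acid genes fell. Under median scaling 18 sterol genes and 11 fatty acid genes fell, with medians of -1.04 and -1.01, and without the 9 h array 1 fatty acid gene rose.

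In glycolysis 10 of 19 tested genes fell and 3 rose, against 11.2% and 12.2% of all genes, with a median of -0.24. Under median scaling 15 fell and 2 rose with a median of -0.86, and with hours as a covariate 1 fell and none rose. ENO2, an enolase, was 10.13 at 0 h, 10.22, 10.13 and 10.18 at 3 to 9 h and 9.26, 8.91, 8.85 and 8.76 at 12 to 21 h (difference -1.23, SE 0.13, adjusted p = 6.76e-05). PFKP, the platelet phosphofructokinase, was 12.98 at 0 h, 12.84, 12.45 and 11.98, and then 11.37, 11.03, 11.33 and 11.22 (difference -1.19, SE 0.17, adjusted p = 0.00038). ENO2 was a new change, whereas PFKP had been falling since 0 h. The 3 that rose, named after their values were seen, were PFKFB3, HK2 and SLC2A1, by 0.80, 0.72 and 0.41.

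The largest single changes lay partly outside the lists. CD7, a surface protein best known on T cells, was 5.67 at 0 h, 5.49, 6.13 and 6.04 at 3 to 9 h, and 8.09, 8.02, 7.97 and 8.27 at 12 to 21 h. It was detected on none of the 3 early arrays and on all 4 later ones, so the rise is at least 3.75-fold (adjusted p = 1.29e-05). Of the leukocyte markers, PTPRC was detected on none of the 16 arrays and CD3D on 1, whereas the myeloid markers CD68 and CD14 were detected on all 16. Their part in this rise was not tested. GLYATL2, a glycine N-acyltransferase, was 11.22 at 0 h, 11.19, 11.33 and 11.68, and then 12.88, 13.23, 13.92 and 14.09 (difference 2.13, SE 0.24, adjusted p = 8.42e-05), so it went on rising through the second window. XAF1, an interferon-inducible antagonist of XIAP, rose by 1.59 (SE 0.11, adjusted p = 4.61e-06), and a second probe by 1.61. PNPLA7, a lysophospholipase, RASL11A, a small GTPase, and FMO5, a flavin monooxygenase, rose by 1.71, 1.58 and 1.58.

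TAGLN fell most. It encodes transgelin, an actin-binding protein controlled by SRF, and was 12.78 at 0 h, 12.88, 12.95 and 12.66 at 3 to 9 h and 9.81, 9.45, 9.28 and 8.99 at 12 to 21 h (difference -3.45, SE 0.16, adjusted p = 6.85e-07), 10.9-fold. A second probe fell by 2.74. ACTG2, smooth muscle gamma actin, CSPG5, a chondroitin sulfate proteoglycan, and GLIPR1 were detected on all 3 early arrays and on none of the later 4, with falls of at least 5.19-fold, 5.53-fold and 3.92-fold. The transcript LOC198437, whose symbol matched no current gene, fell likewise by at least 7.05-fold. GALNT16, a transferase of mucin-type O-glycosylation, and SPC25, a kinetochore protein, fell by 3.08 (SE 0.24, adjusted p = 7.27e-06) and 2.65 (SE 0.36, adjusted p = 0.000346). All of these except GALNT16 were new changes. TAGLN was not typical of its list, which had a median of -0.19. Of 14 YAP and actin-SRF targets 5 fell and none rose, against 11.2% of all genes that fell. Without the 6 h array 3 fell, and without the 9 h array 6 fell and 1 rose. MYL9, a myosin light chain, fell by 1.57 (SE 0.19, adjusted p = 0.00012), and ACTN1, alpha-actinin, by 0.97 (SE 0.23, adjusted p = 0.00943).

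Of 7 metallothioneins, small metal-binding proteins, 6 fell, against 11.2% of all genes, with a median of -0.75. MT1G was 11.67 at 0 h, 11.37, 10.66 and 9.54 at 3 to 9 h and 8.98, 8.56, 8.37 and 8.04 at 12 to 21 h (difference -2.04, SE 0.34, adjusted p = 0.00124). It fell on every array from 0 to 21 h, so the window difference caught part of a continuous decline. Members of the family are close in sequence and their probes may share signal. None of them fell with hours as a covariate. Of 16 cornification, S100 and stratified keratin genes, 7 fell and 1 rose, against 11.2% and 12.2% of all genes. KRT17, a basal keratin, fell by 1.13 (SE 0.18, adjusted p = 0.00103). KRT15, another basal keratin, was 10.62 at 0 h, 10.63, 11.17 and 11.90, and then 12.28, 12.45, 12.64 and 12.99 (difference 1.36, SE 0.24, adjusted p = 0.0019).

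By their brightest probes the receptors gave no change that passed. ERBB2, the gene of HER2, was 16.10 at 0 h, 16.12, 16.11 and 16.11 at 3 to 9 h and 16.10, 16.05, 16.07 and 16.09 at 12 to 21 h. Its raw signal lay between 94.5% and 99.4% of the brightest probe on every array, so the probe was close to the top of the scale and a change could not be read from it. A dimmer probe of the gene gave 0.20 (adjusted p = 0.198). ERBB3, the partner receptor, was 12.35 at 0 h, 13.03, 13.77 and 13.79 in the first window, and 13.45, 13.58, 13.57 and 13.56 in the second (difference 0.01, SE 0.15, adjusted p = 0.969), above the start on all 7 arrays. Of its other probes, 1 fell by 0.38 (adjusted p = 0.0279) and 1 gave -0.17 (adjusted p = 0.333). EGFR differed by -0.07 (SE 0.11, adjusted p = 0.692). Of 10 ERBB receptors and ligands only TGFA, a ligand of EGFR, rose, by 0.48 (SE 0.12, adjusted p = 0.0158), and it was a return. VAMP8, a SNARE protein that the study followed, rose by 0.27 (SE 0.08, adjusted p = 0.027), from 14.25, 14.49 and 14.60 to 14.70, 14.70, 14.72 and 14.74, and its difference was -0.36 under median scaling.

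**Figure D5:**
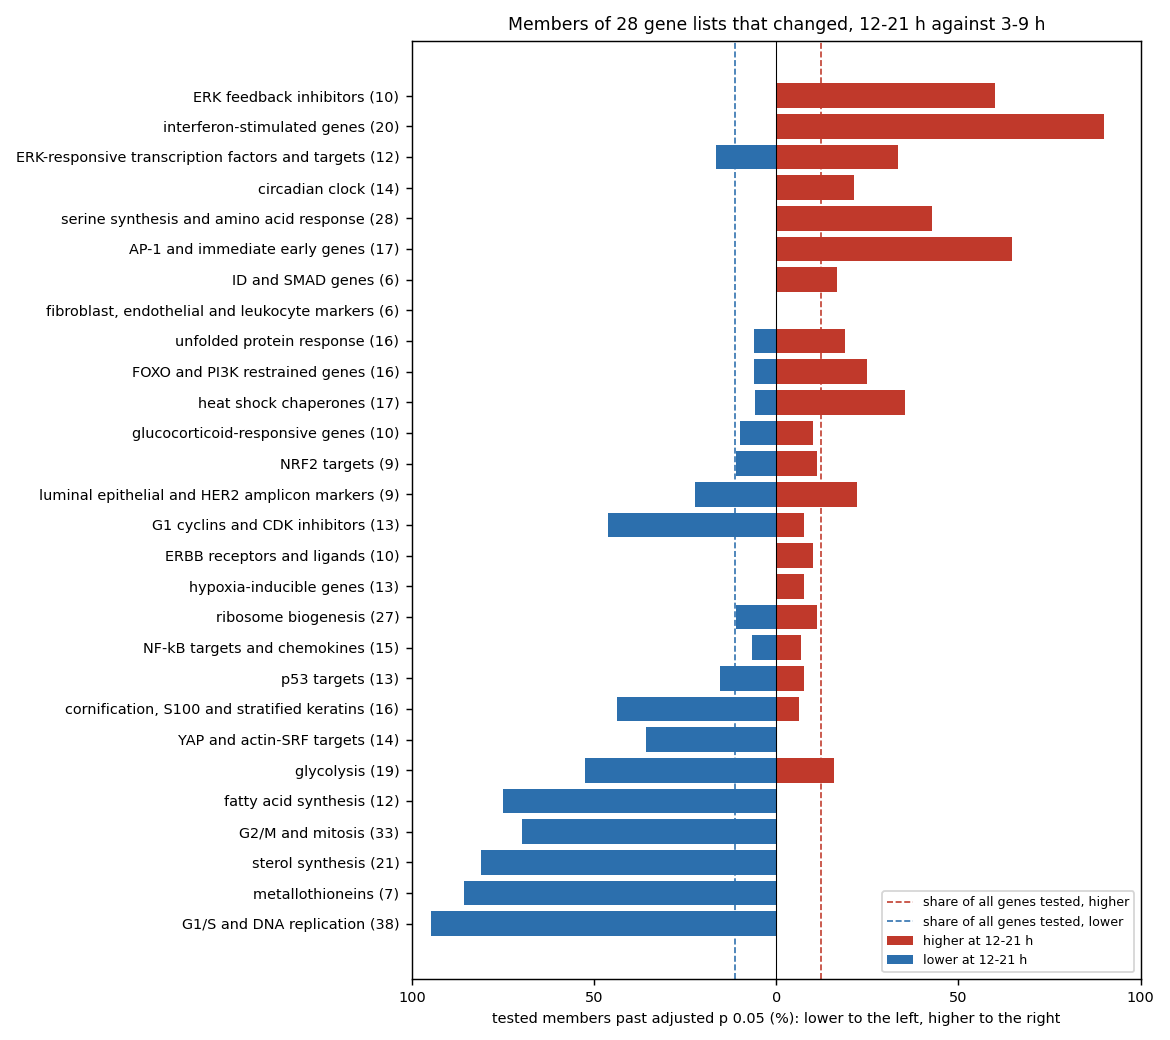
Percentage of the tested members of 28 gene lists (rows, with their number) that were higher (right, red) or lower (left, blue) at 12-21 h at an adjusted p of 0.05 (x axis), ordered by the list median, with dashed lines at the share of all genes that rose (12.2%) and fell (11.2%). Interferon-stimulated genes (18 of 20) and DNA replication genes (36 of 38) have the highest shares of rises and falls, while under median scaling the heat shock list holds no rise and 4 falls.

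Over the 28 lists, 215 of 433 genes tested had changed, against 23.4% of all genes. The lists were chosen with earlier results of these data known, so this share is a description and no test. Of all genes, 12.2% rose and 11.2% fell. Of 16 FOXO and PI3K restrained genes 4 rose and 1 fell, of 16 genes of the unfolded protein response 3 rose and 1 fell, of 14 circadian clock genes 3 rose, and of 27 ribosome biogenesis genes 3 rose and 3 fell. These counts rest on single arrays, since 0 clock genes rose without the 6 h or 18 h array and 6 without the 9 h array, and 6 ribosome biogenesis genes rose and 2 fell without the 3 h array, against 2 and 8 without the 9 h array. Of 13 hypoxia-inducible genes 1 rose, and of 6 ID and SMAD genes 1 rose. Of 15 NF-kB targets and chemokines, 10 glucocorticoid-responsive genes and 9 NRF2 targets, 1 rose and 1 fell in each list. Of 13 p53 targets 1 rose and 2 fell, and of 9 luminal and HER2 amplicon markers 2 rose and 2 fell. TRIB2 and FOXO4, both restrained by PI3K-AKT signalling, rose by 0.79 (SE 0.12, adjusted p = 0.000923) and 0.97 (SE 0.18, adjusted p = 0.00288), and HERPUD1, of endoplasmic reticulum-associated degradation, by 0.76 (SE 0.08, adjusted p = 5.83e-05).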

How the data were processed

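The deposited values are linear signal intensities of Illumina bead arrays, which the authors left without background correction or normalization, and detection p-values. The scanning software was not given in the sources used here. Of 18631 symbols, 91.0% matched RefSeq by symbol or by a synonym of 1 gene, and 21 symbols were calendar dates and were not named.

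Intensities were background-corrected from the detection p-values, with an offset of 16 that reduces the fold changes of dim probes, quantile-normalized over the 16 arrays and log2-transformed (neqc, limma 3.58.1 in R 4.3.3). The 16110 probes tested had detection p-values under 0.05 on 3 or more of the 16 arrays. The 4 arrays at 12-21 h were compared with the 3 at 3-9 h by limma's lmFit and eBayes (trend on mean level), two-sided, adjusted by the Benjamini-Hochberg method over all probes at a threshold of 0.05. On simulated data for this comparison with 16110 probes, the fit recovered 20.9%, 77.6% and 97.0% of changes of 0.5, 1 and 2 log2 units, and 2.26% of its calls were false. The simulated arrays had independent noise, no trend within windows and far fewer changed probes than were called here. These rates may therefore not hold for the data. A gene was read from its brightest probe. Where a probe was detected on no array of the dimmer window, its fold is a lower bound against the lowest signal detected. The number of arrays limits the precision.

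The time windows, gene lists and motifs were chosen with earlier results of these data known. Named genes were the 8 largest rises and falls among non-overlapping changes detected on every array of the brighter window, the 6 largest returns and new changes, up to 5 members of lowest adjusted p in each list, and VAMP8, PHGDH, ERBB2, ERBB3 and EGFR, of which the text describes a part. E2F2, MCM7, STC2, IFI27, BST2, PFKFB3, HK2, SLC2A1 and ERRFI1 were named outside this rule, after their values were seen. Other background corrections, scalings, filters, windows and weights, hours as a covariate and each array left out in turn were run as alternatives. Leaving out both the 9 h and 12 h arrays, and the place of the later arrays, were added after seeing the data.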

Additional observations from a re-analysis of the deposited data

Results flagged for a closer look

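Among the named genes, the 4 arrays at 12-21 h were searched for 1 array that lay far from the other 3 on Dixon's criterion, which by chance marks about 1 in 20 such groups. The windows of 3 arrays were too small for this. RASL11A was lowest at 12 h, with 7.74 against 8.13 to 8.18 later. XAF1 was highest at 21 h, with 11.51 against 11.27 to 11.28 before. ACLY was lowest at 21 h, with 12.15. ATF4 was highest at 12 h, with 15.88. In RASL11A, XAF1 and ACLY all 4 arrays still lay on the same side of all 3 early arrays, and so they did in ATF4.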

How the results depend on the processing

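No paired analysis was possible because a single array stands for every hour and numbers within windows mark only the order of time. The 3622 changed probes became 6855 with array weights and 261 with hours as a covariate, and between 2102 and 4507 with 1 array left out. The 215 changed list members became 55 with hours as a covariate and lay between 161 and 231 with 1 array left out. Without both the 9 h and 12 h arrays, an alternative added after seeing the data, 4446 probes and 230 list members passed. Of the 261 returns and 1379 new changes, 14 and 304 were changes of at least 1 log2 unit, since fewer probes reach that size. The other alternatives kept these counts within 1.5 times.

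Under median scaling the differences of ATF4 (-0.055), VAMP8 (-0.36), PHGDH (-0.90) and ERBB3 (-0.47) changed sign. PHGDH gave -0.11 under cyclic loess, -0.0026 with array weights, -0.047 without the 9 h and 12 h arrays and between -0.045 and 0.065 with 1 array left out. ERBB3 gave -0.16 with array weights and -0.44 with hours as a covariate, between -0.24 and 0.14 with 1 array left out, and -0.38 and -0.17 by its other probes. With hours as a covariate EGFR gave 0.022. Other probes of ERBB2 (0.20), LSS (0.050), ATF4 (-0.16) and IFI6 (-0.22) had the opposite sign, and those of LSS and ATF4 were detected on 8 and 6 of 16 arrays. A further probe of each, detected on all 16, kept the sign and passed, with 0.91 (adjusted p = 0.000867 in limma) for ATF4 and -0.65 (adjusted p = 0.00917) for LSS. Median scaling divided the log2 values of each array by 1 factor, so its shifts grew with the level of a probe. The cause of the other shifts was not tested. Dim probes were limited by the background, and ERBB2 by a brightest probe close to the maximum.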

Other observations

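The arrays after 21 h were in no test and describe how long the difference lasted. Of the 364 probes that fell by at least 1 log2 unit, 48 were nearer the 3-9 h mean than the 12-21 h mean at 24 h, and 23 at 45 h. Of the 141 that rose as much, 35 were nearer the 3-9 h mean at 24 h and 38 at 45 h. Replication genes stayed low, with a list median of -1.41 at 24 h and -1.93 at 45 h relative to the 3-9 h mean. DUSP6 and SPRY4 lost their rebound, with means of 8.24 and 7.78 at 24-33 h and 7.75 and 6.98 at 36-45 h, while SPRY1 kept it, with means of 10.98 and 11.17.

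Some genes changed back within 1 step. TAGLN went from 8.99 at 21 h to 11.88 at 24 h, LSS from 11.24 to 12.48 and IFIT1 from 14.41 to 13.10. The list median of interferon-stimulated genes moved by -0.76 from 21 to 24 h, that of metallothioneins by 0.76 and that of G2/M genes by 0.51, and the last moved by -1.30 from 33 to 36 h. These steps, like that from 9 to 12 h, lie where sets of 4 arrays in order of time would meet. A step of the same size lay inside such a set, since the root mean square step was 0.42 from 42 to 45 h and the cornification list median moved by -0.78 there. Whether arrays were handled in such sets is not stated in the labels, and its part in these steps was not tested.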
